A study of Mus musculus with 30 samples.

Results

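AtT-20 cells, a mouse pituitary line of corticotrope origin, were treated with 100 nM CRH for 1, 3, 6, 12 or 24 h, and untreated AtT-20 cells harvested at the same times served as controls. All cells had been deprived of serum before treatment. CRH-treated and untreated RNA was amplified, labelled with Cy3 and Cy5 and hybridised together on mouse cDNA arrays, with 6 arrays per time point. CRH-treated RNA carried Cy3 on replicates 1 to 3 and Cy5 on replicates 4 to 6. The 6 arrays are technical replicates of a single pair of RNA samples, so spreads and p-values over arrays describe repeated hybridisation and not repeated cultures. The zinc finger proteins are the spots whose printed name starts with the words zinc finger, which gave 136 spots, plus the spot of Zfp213, whose printed name is that of a cDNA clone and which the study's supplementary list identifies. Of these 137 spots among 22830 gene spots, standing for 99 genes or names, 85 spots of 69 genes or names had both channels brighter than the dimmest 10% of spots on every one of the 30 arrays. That is 62.0% of the zinc finger spots, against 63.0% of all gene spots (14375 spots passed). The other 52 zinc finger spots were too dim to be given a ratio.

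Zinc fingers are small protein folds held together by a zinc ion, and several unrelated kinds share the name. The classical C2H2 fingers of the numbered Zfp genes bind DNA, and many of these proteins also carry a KRAB, SCAN or BTB domain through which they recruit corepressors or partners. Other members bind RNA or ubiquitin, or are ubiquitin ligases with a RING finger. CRH acts on corticotropes through CRHR1, which raises cAMP and activates the transcription factor CREB. CREB binds the cAMP response element, whose full form is the palindrome TGACGTCA and whose core site is TGACG.

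On each array the value of a spot is the log2 ratio of the CRH-treated over the untreated channel after a loess normalisation within each print-tip block, so that a value above 0 means more signal from CRH-treated cells. Signals were of moderate strength. The median zinc finger spot read 1584 intensity units in the CRH-treated channel and 1579 in the untreated channel, and the median over all measured spots was 1735 and 1727 units. Of the corticotrope markers, Pomc, the precursor of ACTH, had a median intensity of 10150 units in the CRH-treated channel and 9493 in the untreated channel, and Pitx1 was at 15960 units in the CRH-treated channel and 21980 in the untreated channel. Tbx19, the corticotrope factor that drives Pomc, was weak, with 711 units in the CRH-treated channel and 732 in the untreated channel. Of the 11 corticotrope marker spots, that of Chga (448 and 398 units) and 1 of Scg2 (494 and 466 units) did not pass the intensity filter. Of the 9 corticotrope marker spots above the filter, 6 had a dye interaction as defined below, none of the other 3 changed over time, and 2 spots, both of Neurod1, averaged a 1.5-fold lower signal in CRH-treated cells with the same sign on all 6 arrays (-0.73 at 3 h for one and -0.61 at 24 h for the other, both with a dye interaction). Of the markers of other pituitary, fibroblast, blood and endothelial cells, 11 of 18 spots were above the intensity filter, growth hormone at 520 units in the CRH-treated channel and 553 in the untreated channel and the brightest, a Cdh5 spot, at 2915 and 3141 units, and none of the 10 that could be tested changed over time. Dye orientation took up 35.7% of the variance of the zinc finger ratios over the 30 arrays, time 12.8% and their interaction 13.3%. The shares over all spots were 35.3%, 13.7% and 13.9%.

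Promoter sequences are printed here for Zfp213 and Zfp142, the members with a RefSeq promoter whose test for time had an adjusted p under 0.05, because CRH signals through CREB. They are the RefSeq promoters of build GRCm38.p6, which run from 250 bases before to 50 bases after the annotated gene start, read 5′ to 3′ on the strand of the gene. Capitals mark the core site TGACG on either strand (TGACG or CGTCA). The windows lie at chr17:23564177-23564476 on the minus strand (Zfp213) and chr1:74587979-74588278 on the minus strand (Zfp142).
Zfp213: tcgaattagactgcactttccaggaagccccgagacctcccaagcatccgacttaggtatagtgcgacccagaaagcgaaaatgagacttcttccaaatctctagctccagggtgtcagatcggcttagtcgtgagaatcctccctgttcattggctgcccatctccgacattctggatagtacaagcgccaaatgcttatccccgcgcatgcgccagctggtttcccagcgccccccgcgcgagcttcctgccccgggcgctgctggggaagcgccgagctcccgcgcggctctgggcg
Zfp142: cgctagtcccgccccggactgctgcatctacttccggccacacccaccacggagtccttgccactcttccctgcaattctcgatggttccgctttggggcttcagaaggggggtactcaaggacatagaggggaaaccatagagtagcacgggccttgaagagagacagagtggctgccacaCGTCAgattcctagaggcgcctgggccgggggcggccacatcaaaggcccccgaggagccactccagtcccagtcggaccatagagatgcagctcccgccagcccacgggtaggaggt
The window of Zfp213 held no core site and that of Zfp142 held 1. Promoters were found for 79 of the 97 zinc finger genes with a current symbol. None of the 79 held the full element TGACGTCA, which 2.03% of all 27025 genes with a promoter in the table did. The core site stood in the promoters of 26 of the 79 genes (32.9%), and of 23.0% of all genes. Of the 8 genes with a promoter and a spot that passed the test for time, 4 held a core site. Zfp142 held 1, Zfp143 and Zfand5 held 3 each and Zmym3 held 1 in 2 of its 3 windows, while Zfp213, Rnf114, Zfpm1 and Fezf2 held none. These are matches of letters and were not measured as binding sites.

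The zinc finger spots showed small differences between CRH-treated and untreated cells at every time point. The largest average over 6 arrays was that of Zfp213 at 1 h, a log2 ratio of -0.45, which is 1.36-fold lower in CRH-treated cells. The highest averages were 0.30 at 1 h (Zfp53), 0.34 at 3 h (Sf1), 0.39 at 6 h (the first spot of Zfp64), 0.28 at 12 h (Zfp113) and 0.32 at 24 h (Zfp213). The lowest were -0.45 at 1 h (Zfp213), -0.37 at 3 h (Zkscan5), -0.32 at 6 h (Rnf103), -0.41 at 12 h (Zfpm1) and -0.44 at 24 h (the first spot of Fezf2). Of these, Sf1 and Rnf103 are among the spots with a dye interaction described below. As a group the spots were centred near 0, with median log2 ratios of -0.03, -0.01, -0.01, -0.01 and -0.01 at 1, 3, 6, 12 and 24 h, while the medians over all spots were 0.00, -0.02, 0.00, -0.01 and -0.01. Between 38 and 42 of the 85 averages were above 0 at each time point.

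**Figure D1:**
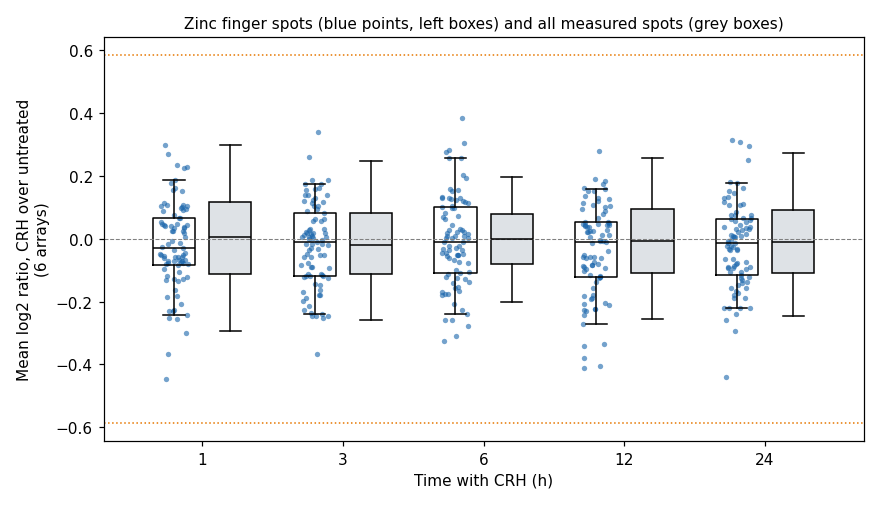
Mean log2 ratio of CRH-treated over untreated cells (y axis, 6 arrays each) at each time with CRH (x axis, h). Blue points and the left boxes are the 85 zinc finger spots and grey boxes all 14375 measured spots. Boxes span the quartiles with the median as a line, whiskers run between the 5th and 95th percentiles, and dotted lines mark a 1.5-fold difference, which no zinc finger spot reached.

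No zinc finger spot averaged a 1.5-fold difference with the same sign on all 6 arrays at any time point. Over all measured spots this happened for 0.0974%, 0.146%, 0.0348%, 0.125% and 0.104% of spots towards higher signal in CRH-treated cells at 1, 3, 6, 12 and 24 h, and for 0.0974%, 0.0139%, 0%, 0.0139% and 0.0487% towards lower signal. With 85 spots such shares amount to less than 1 spot per time point. At 18 of the 85 spots (21.2%) the 6 arrays of at least 1 time point all lay on the same side of 0, against 20.7% of all spots.

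To ask whether CRH shifted a gene over the whole course, the 5 time point averages were taken as the units. With limma, 0 of 85 zinc finger spots differed from 0 at an adjusted p under 0.05 (lowest adjusted p = 0.871), against 0.0557% of all spots (8 of 14375). At an unadjusted p under 0.05 limma returned 1 zinc finger spot and 5.38% of all spots, and its robust, trended version also called 0 zinc finger spots. The 3 lowest mean log2 ratios over the 5 time points were -0.17 ± 0.06 (SE) for the first spot of Zfhx4, a large homeodomain factor with many zinc fingers, -0.12 ± 0.07 for the second spot of Zfp64 and -0.12 ± 0.07 for Zfp142. Without replicate 3 the value of the second spot of Zfp64 was -0.06, and without replicate 6 it was -0.18. The first spot of Zfhx4 was the one with an unadjusted limma p under 0.05 (adjusted p = 0.871). Its ratio depended on time differently in the 2 dye orientations (interaction p = 0.00104, n = 30 arrays), so its course is not given. The 3 highest were 0.09 ± 0.05 for Zfpl1, a Golgi membrane protein, 0.08 ± 0.06 for the fourth spot of Zfand5 and 0.08 ± 0.07 for Sf1, the splicing factor that recognises the branch point, whose spot also had a dye interaction (p = 0.0017, n = 30 arrays). Leaving out a replicate moved the value of the fourth spot of Zfand5 to between -0.0023 (without replicate 1) and 0.13 (without replicate 4), and that of Sf1 to 0.05 without replicate 1. In all, 33 spots had a mean above 0 and 52 a mean below 0. The median of these means was -0.023 for the zinc finger spots and -0.007 for all spots. The share of all spots with a mean below 0 was not counted.

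A trend along log2 of time was also tested with limma on the 5 averages. It called 0 of 85 zinc finger spots, against 0% of all spots. At an unadjusted p under 0.05 it returned 5 zinc finger spots, 2 with a positive and 3 with a negative slope, and 7.15% of all spots. The steepest were the second spot of Zmym3 at 0.14 ± 0.04 (SE) log2 units per doubling of time and Zfp213 at 0.12 ± 0.05 upwards, and the first spot of Fezf2 at -0.11 ± 0.04 downwards (limma adjusted p = 0.593, 0.621 and 0.603).

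**Figure D2:**
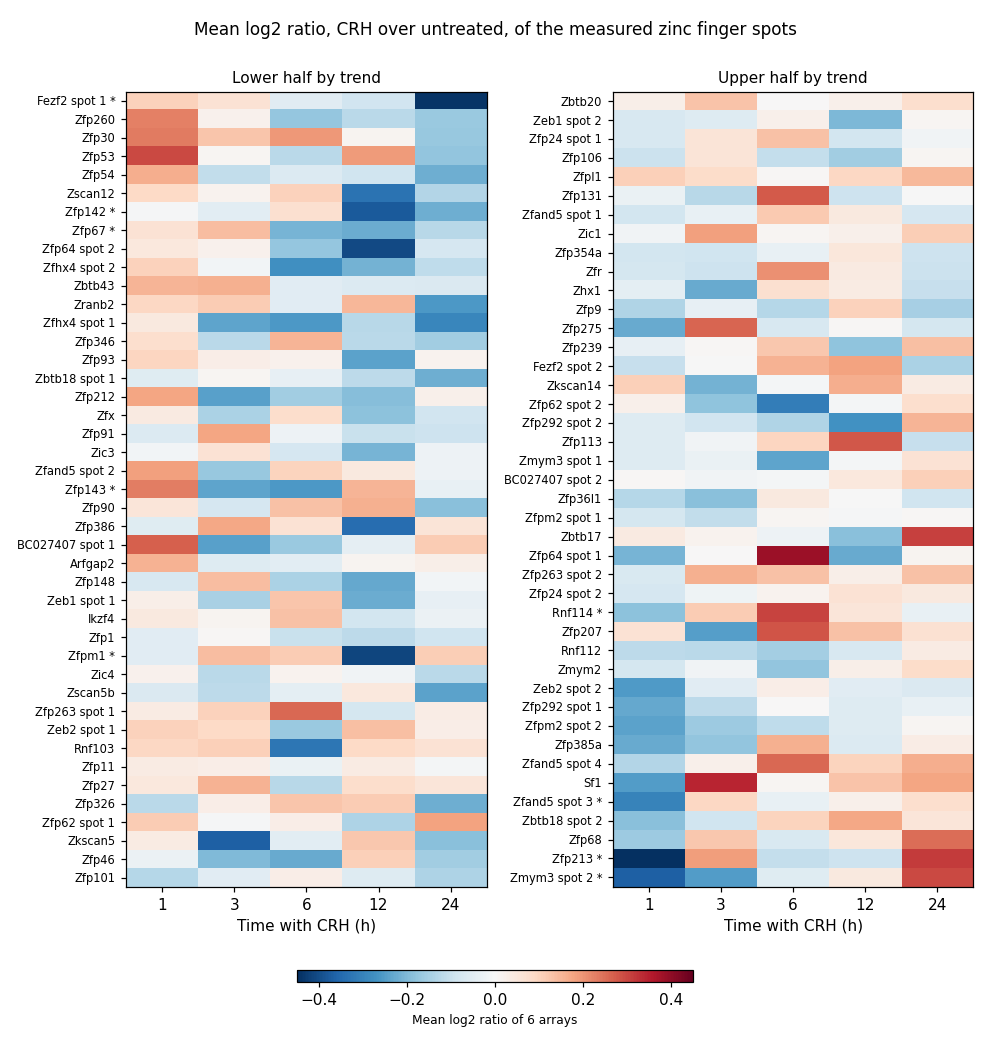
Mean log2 ratio of CRH-treated over untreated cells (colour, 6 arrays) for each of the 85 measured zinc finger spots (rows, ordered by their trend along log2 of time, split over both panels) at each time with CRH (columns, h). Stars mark the 9 spots that passed the test for change over time. The colour scale ends at 0.45 in both directions and among the strongest colours are Zfp213 at 1 h, Fezf2 spot 1 at 24 h, Zfpm1 at 12 h, Zfp64 spot 1 at 6 h and Zfp64 spot 2 at 12 h.

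The design asks first which genes changed over the course of CRH treatment. Following the study, spots whose ratio depended on time differently in the 2 dye orientations were set aside, and the rest were tested for time with dye orientation in a linear model over 30 arrays. A dye interaction (p under 0.01) was seen at 9 of 85 zinc finger spots (10.6%), against 14.8% of all spots. Of the other 76 zinc finger spots, 9 changed over time at a p under 0.01 (11.8%), against 8.27% of the 12249 spots without a dye interaction. Of these 9, 3 also passed at a Benjamini-Hochberg adjusted p under 0.05 over all spots tested, as 3.85% of all spots did. Zfp213 and Zfp142 had been picked out in earlier analyses of the same arrays, so their calls are no independent evidence. Without them 7 of 74 spots passed (9.46%), which is near the share over all spots. On the deposited ratios the same models gave a dye interaction at 1801 of 12593 spots and a change over time at 878 of 10792. The study reported fewer spots at both steps at the same p, and the cause was not tested. The highest p inside the threshold was 0.00611 (the first spot of Fezf2) and the lowest outside it was 0.0215 (Zscan12).

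Zfp213, a numbered C2H2 gene, changed most. At 1 h the 6 arrays gave a lowest, median and highest log2 ratio of -0.80, -0.47 and 0.03. At 3 h they gave -0.01, 0.13 and 0.48. At 6 h they gave -0.31, -0.17 and 0.21. Zfp213 was thus lower in CRH-treated cells on 5 of 6 arrays at 1 h and higher on 5 of 6 at 3 h. At 12 h the values were -0.39, -0.08 and 0.10, and at 24 h they were 0.15, 0.31 and 0.46, so that all 6 arrays of 24 h were above 0. The arrays of 24 h did not overlap with those of 12 h or of 1 h, but overlapped in part with those of 3 h and 6 h. How often time points are free of overlap was not counted over all spots. The averages were -0.45 ± 0.27, 0.19 ± 0.20, -0.11 ± 0.21, -0.09 ± 0.18 and 0.32 ± 0.11 (SD, n = 6 arrays) from 1 to 24 h. The test for time gave p = 2.07e-07 (n = 30 arrays, adjusted p = 1.81e-04). Both dye orientations ran the same way at the ends of the course, with means of -0.63 (CRH in Cy3) and -0.27 (CRH in Cy5) at 1 h and of 0.33 and 0.31 at 24 h. Intensities were well above the filter, between 1197 and 16920 units in the CRH-treated channel and between 1214 and 14180 in the untreated channel.

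Zfp67 came next. RefSeq gave no current symbol for this printed name, and a second Zfp67 spot was too dim to be used. Its average was 0.07 ± 0.13 at 1 h and 0.14 ± 0.17 at 3 h, followed by -0.21 ± 0.19 at 6 h, -0.22 ± 0.32 at 12 h and -0.12 ± 0.17 at 24 h (SD, n = 6 arrays). It was above 0 on 5 of 6 arrays at 3 h and below 0 on 5 of 6 at 6 h and at 24 h. The mean of 6 h was -0.31 with CRH in Cy3 and -0.11 with CRH in Cy5. At 12 h the orientations differed, with -0.51 and 0.06, and at 24 h they gave -0.25 and 0.00. The 4 arrays of 12 h quantified on the earlier day averaged -0.35. The 2 of the later day, both with CRH in Cy5, averaged 0.03, and the 1 array of the earlier day with CRH in Cy5 gave 0.13. The part of day and dye in these values was not tested. At 3 h the lowest, median and highest values were -0.02, 0.09 and 0.45. At 6 h they were -0.35, -0.28 and 0.12, so that the arrays of the neighbouring times overlapped in a few values. The test for time gave p = 1.77e-04 (n = 30 arrays, adjusted p = 0.0113). The spot was very bright, with medians of 40250 units in the CRH-treated channel and 42250 in the untreated channel. On 5 of 30 arrays 1 channel was saturated, the CRH-treated on 2 and the untreated on 3, and there the ratio is a bound. Of these arrays 4 were at 24 h and 1 at 3 h. Without them, an alternative chosen after seeing the data, the test for time gave p = 2.18e-04 (n = 25 arrays). With median centring in place of loess its p was 0.0103 (n = 30 arrays).

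Zfp142, a protein with many C2H2 fingers, was lower in CRH-treated cells at the late times. At 1, 3 and 6 h its averages were -0.01 ± 0.18, -0.05 ± 0.21 and 0.07 ± 0.22 (SD, n = 6 arrays), and the arrays lay on both sides of 0. At 12 h the average was -0.38 ± 0.12, and the lowest, median and highest arrays were -0.54, -0.36 and -0.22. At 24 h it was -0.22 ± 0.23, with arrays at -0.47, -0.24 and 0.06. All 6 arrays of 12 h were below 0 and did not overlap with those of 1 h, but overlapped in part with those of 3, 6 and 24 h. The test for time gave p = 4.77e-04 (n = 30 arrays, adjusted p = 0.0207). At 12 h both orientations gave the same value, with means of -0.36 (CRH in Cy3) and -0.40 (CRH in Cy5). The 12 h arrays were quantified on 2 days, and the means were -0.36 over the 4 arrays of the earlier day and -0.41 over the 2 arrays of the later day, both of which had CRH in Cy5. At 24 h the orientations differed, with -0.03 (CRH in Cy3) and -0.41 (CRH in Cy5).

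**Figure D3:**
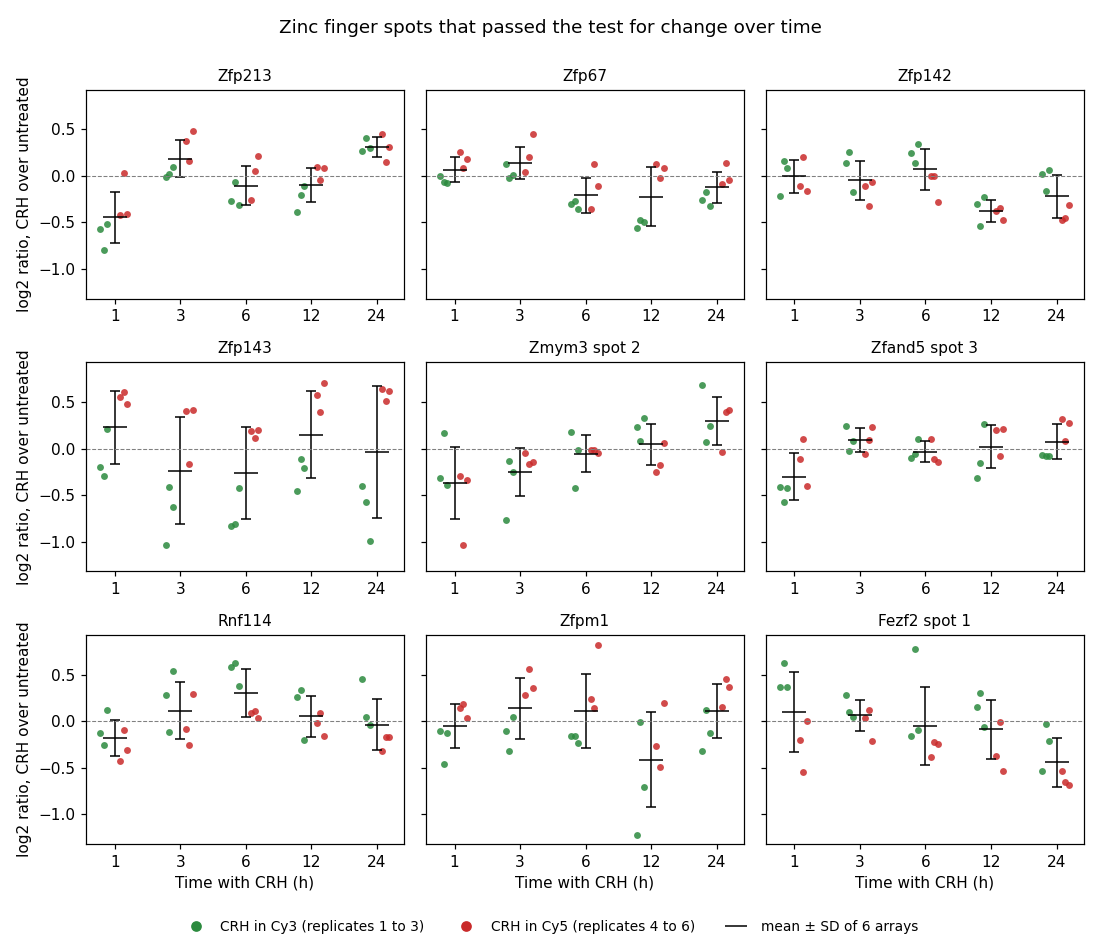
Log2 ratio of CRH-treated over untreated cells on every array (y axis) at each time with CRH (x axis, h) for the 9 zinc finger spots that passed the test for time. Green points have CRH in Cy3 and red points CRH in Cy5, black bars are the mean ± SD of 6 arrays. Zfp213 lies lowest at 1 h and highest at 24 h, Zfp142 lies below 0 on all 6 arrays of 12 h, and the orientations of Zfp143 lie apart at each time.

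The other 6 spots passed at a p between 0.00283 and 0.00611 and had adjusted p between 0.0619 and 0.0933. They belong to 2 DNA-binding factors, 2 cofactors of transcription and 2 proteins of the ubiquitin system. Zfp143, which activates promoters of small nuclear RNA and many protein-coding genes, averaged 0.23 ± 0.39, -0.24 ± 0.58, -0.26 ± 0.49, 0.15 ± 0.47 and -0.03 ± 0.71 from 1 to 24 h (SD over 6 arrays; p = 0.00283, n = 30 arrays). Its spread was mostly that of the dye, since the ratio was on average 0.89 log2 units lower with CRH in Cy3 than with CRH in Cy5. Its average of 6 h was -0.14 without replicate 1 and -0.15 without replicate 2. Fezf2, a factor of forebrain neurons, fell at its first spot, with averages of 0.10 ± 0.43, 0.06 ± 0.16, -0.05 ± 0.42, -0.09 ± 0.32 and -0.44 ± 0.26 (p = 0.00611, n = 30 arrays). All 6 arrays of 24 h were below 0, between -0.68 and -0.03.

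Among the cofactors, the second spot of Zmym3, a MYM-type protein found with histone deacetylase complexes, averaged -0.37 ± 0.39, -0.25 ± 0.26, -0.05 ± 0.20, 0.05 ± 0.22 and 0.30 ± 0.26 from 1 to 24 h (SD over 6 arrays; p = 0.00317, n = 30 arrays). Without replicate 5 its average of 1 h was -0.23. Its averages increased at each step, and the arrays of 24 h did not overlap with those of 3 h, but overlapped in part with those of the other times. Zfpm1, known as FOG1, the partner of GATA factors, averaged -0.05 ± 0.24, 0.14 ± 0.33, 0.11 ± 0.40, -0.41 ± 0.51 and 0.11 ± 0.29 (p = 0.00599, n = 30 arrays). Its average of 12 h was the lowest of the 5, and the 6 arrays behind it ran from -1.22 to 0.20. That average was -0.25 without replicate 1 and -0.27 with median centring (time p = 0.0618, n = 30 arrays). The 4 arrays of the earlier day averaged -0.55 and the 2 of the later day -0.14 at 12 h, and 1 array of the earlier day with CRH in Cy5, the orientation of both later arrays, gave -0.26. The part of day and dye in this value was not tested.

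The 2 spots of ubiquitin genes that passed were lowest at 1 h. Rnf114, a RING-finger ubiquitin ligase, averaged -0.18 ± 0.19, 0.11 ± 0.31, 0.30 ± 0.26, 0.05 ± 0.22 and -0.03 ± 0.27 from 1 to 24 h (SD over 6 arrays; p = 0.00581, n = 30 arrays). It was below 0 on 5 of 6 arrays at 1 h and above 0 on all 6 at 6 h, where its average was 0.20 with median centring (time p = 0.0899, n = 30 arrays). The third spot of Zfand5, which binds ubiquitin and stimulates the proteasome, averaged -0.30 ± 0.25, 0.09 ± 0.13, -0.03 ± 0.11, 0.02 ± 0.24 and 0.08 ± 0.19 (p = 0.00424, n = 30 arrays). At 1 h it was below 0 on 5 of 6 arrays, with -0.57, -0.41 and 0.11 as the lowest, median and highest values.

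Time was partly tied to the day of quantification, which the file headers give. There were 4 such days, day 1 for the arrays of 1 h, day 2 for 3 and 6 h, day 3 for 4 arrays of 12 h, and day 4 for the other 2 arrays of 12 h and all of 24 h, so that, besides 6 h against 3 h and 24 h against 2 arrays of 12 h, differences between times, the late values of Zfp142 included, cannot be told apart from the day. With the day as a block, the test compares only times read on the same day. It kept 2 of the 9 calls, Zfp213 (p = 0.00116, n = 30 arrays) and Zfp67 (p = 6.70e-04, n = 30 arrays), and the p of the other 7 lay between 0.117 and 0.793 (0.398 for Zfp142). Leaving out each replicate number in turn, Zfp213, Zfp67 and Zfp142 remained under the threshold each time, with highest p of 1.77e-05, 0.00413 and 0.00715. Each of the other 6 was lost in 3 or 4 of 6 such fits.

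The clearest comparison of times is 6 h against 3 h, since both were read on the same day. Over these 12 arrays, 5 of 85 zinc finger spots differed at a p under 0.01 (5.88%), against 3.69% of all spots. None had an adjusted p under 0.05 (0.191 to 0.268), as 0.0974% of all spots did. Zfr, the first spot of Zeb1 and Zfp207 are named because they are in this count, after their values were seen. Zfp67 was lower at 6 h, at -0.21 ± 0.19, than at 3 h, at 0.14 ± 0.17, a difference of -0.35 log2 units (p = 0.00367, n = 12 arrays). Without the saturated array of 3 h the difference was -0.37 (p = 0.00224, n = 11 arrays). Zfp213 was lower at 6 h, at -0.11 ± 0.21, than at 3 h, at 0.19 ± 0.20 (difference -0.29, p = 0.00901, n = 12 arrays). The other 3 were higher at 6 h. Zfp207, a spindle assembly protein that binds Bub3, averaged 0.28 ± 0.30 at 6 h and -0.25 ± 0.27 at 3 h (difference 0.53, p = 0.00985, n = 12 arrays). Zfr, an RNA-binding protein, averaged 0.20 ± 0.35 at 6 h and -0.09 ± 0.32 at 3 h (difference 0.30, p = 0.00553, n = 12 arrays). That difference was 0.10 with 1 loess per array (p = 0.437, n = 12 arrays) and 0.04 with median centring (p = 0.819, n = 12 arrays). The first spot of Zeb1, a repressor that binds E-boxes, averaged 0.12 ± 0.22 at 6 h and -0.15 ± 0.28 at 3 h (difference 0.27, p = 0.00552, n = 12 arrays), with p = 0.167 for 1 loess per array and 0.132 for median centring. The second spot of Zeb1 averaged 0.02 ± 0.13 at 6 h and -0.06 ± 0.41 at 3 h (linear model p = 0.636, n = 12 arrays). For all 5 spots that differed, the values of 6 h and 3 h overlapped in part. Leaving out 1 replicate number at a time, each of the 5 was lost in 4 or 5 of 6 fits.

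**Figure D4:**
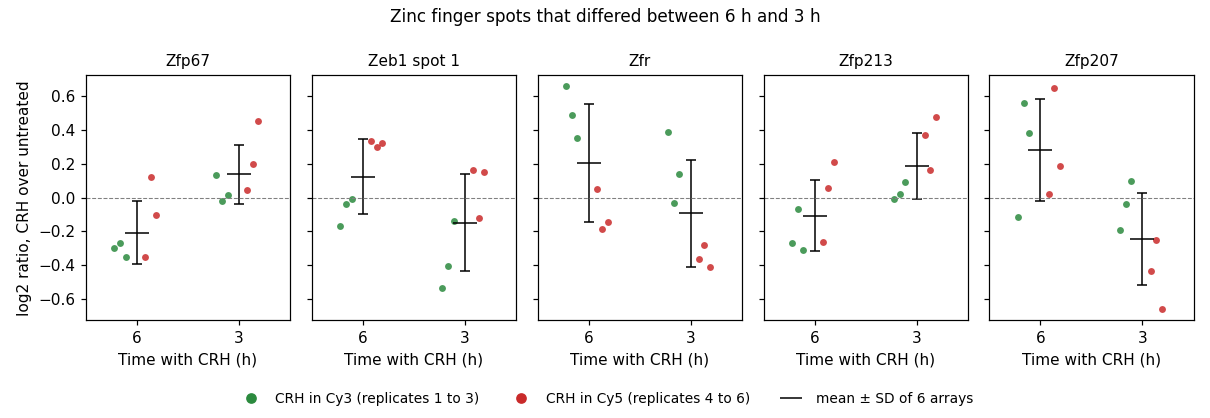
Log2 ratio of CRH-treated over untreated cells on every array (y axis) at 6 h and 3 h with CRH (x axis) for the 5 zinc finger spots that differed between these times. Green points have CRH in Cy3 and red points CRH in Cy5, black bars are the mean ± SD of 6 arrays. Zfp67 and Zfp213 are lower at 6 h and the other 3 are higher.

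Several genes were printed more than once, which allows spots of the same gene to be set beside each other. Measured spots numbered 2 or more for 14 genes (30 spots), and none of these genes had all its spots pass the test for time, while 3 had 1 spot that did. The other 3 spots of Zfand5 had time p of 0.728, 0.438 and 0.244 over 30 arrays. At 1 h, where the third spot averaged -0.30 ± 0.25, they averaged -0.08 ± 0.34, 0.19 ± 0.39 and -0.13 ± 0.21 (SD, n = 6 arrays). The other spot of Zmym3 (p = 0.657, n = 30 arrays) averaged -0.06 ± 0.16 at 1 h and 0.06 ± 0.26 at 24 h, the same signs as the second spot but smaller in size. It was dimmer, with a median of 544 units in the CRH-treated channel and 569 in the untreated channel, against 802 and 916 units for the second spot. The other spot of Fezf2 (p = 0.587, n = 30 arrays) averaged -0.14 ± 0.36 at 24 h, beside -0.44 ± 0.26 at the first spot. That was the only time point at which the averages of both Fezf2 spots had the same sign. At 6 h the first spot of Zfp64 averaged 0.39 ± 0.29 and the second -0.17 ± 0.24 (SD, n = 6 arrays). Their means over the 5 time points were -0.01 and -0.12, and their averages shared a sign at 2 of the 5. Among the 13 genes with 2 measured spots, both averages had the same sign in 36 of 65 comparisons over genes and time points. Whether spots of a gene hold the same stretch of its cDNA is not given in the sources used here.

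**Figure D5:**
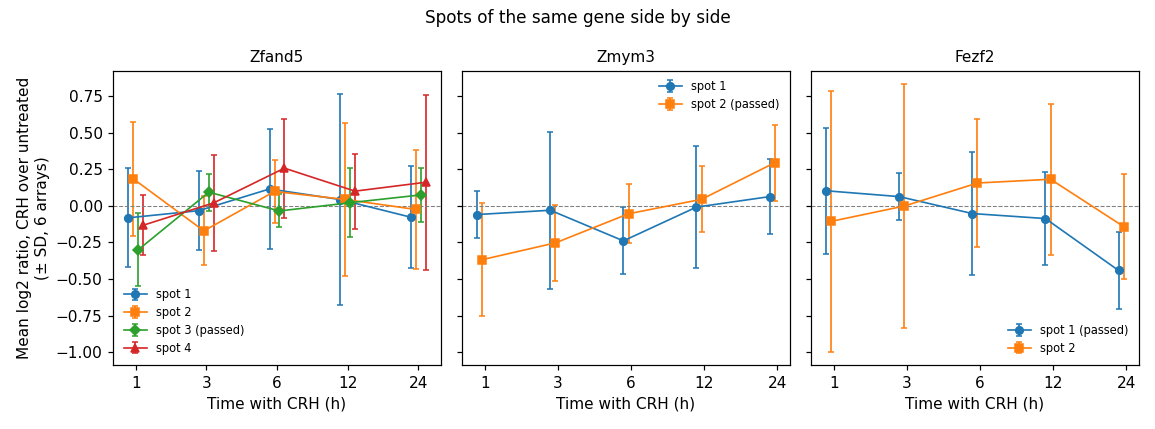
Mean log2 ratio of CRH-treated over untreated cells (y axis, ± SD of 6 arrays) at each time with CRH (x axis, h) for every measured spot of Zfand5, Zmym3 and Fezf2. The spot that passed the test for time is named in each legend. The error bars of the spots of a gene overlap at all 5 times.

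The 9 spots with a dye interaction cannot be read as a time course. The lowest interaction p were those of Zfp148, a factor that binds GC-rich promoters (p = 4.19e-05, n = 30 arrays), Rnf103, a ubiquitin ligase of the endoplasmic reticulum (p = 7.23e-04), and Zfp9 (p = 9.32e-04). At 1 h Zfp148 averaged -0.39 with CRH in Cy3 and 0.24 with CRH in Cy5, whereas at 6 h the 2 means were 0.05 and -0.33. The same 2 means of Rnf103 were 0.36 and -1.01 at 6 h, whereas at 12 h they were -0.02 and 0.20. Those of Zfp9 were 0.61 and -0.41 at 12 h, whereas at 3 h they were -0.13 and 0.06. The dye also left constant differences. The median absolute difference between orientations was 0.29 log2 units over the 85 spots, while the mean CRH ratio over the 5 time points ran from -0.17 to 0.09, and it reached 1.61 at the second spot of Zfp62.

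By printed name, with Zfp213 counted as numbered by its symbol, the 58 numbered spots tested for time gave 8 calls. These include Zfp213 and Zfp142, which had been picked out in earlier analyses of the same arrays. The 12 spots with other names, which include a spot of Zfhx4 (printed as a homeodomain), gave 1 (Zfpm1). The 5 homeobox spots and the 1 CCCH spot (Zfp36l1, which promotes decay of mRNA with AU-rich elements) gave 0. The share over all spots was 8.27%. Zdhhc3, the 1 palmitoyl transferase, was too dim to be measured. Related genes were counted beside them, with the same 8.27% over all spots as background. Of the KRAB corepressor genes, 1 of 13 spots tested changed over time, Cbx5, a heterochromatin protein, with averages from -0.37 ± 0.30 at 1 h to 0.22 ± 0.28 at 3 h (p = 0.00278, n = 30 arrays). Of the other C2H2 factors, 2 of 26 did, Egr3, an immediate early gene (p = 5.47e-04, n = 30 arrays), and Klf7 (p = 0.00338, n = 30 arrays). Egr3 averaged 0.35 ± 0.34 at 1 h and between -0.23 and -0.20 afterwards, with SD between 0.55 and 0.64 at these later times. Klf7 averaged -0.35 ± 0.25 at 12 h and 0.36 ± 0.31 at 24 h. The mRNA decay genes gave 0 of 2 and the depalmitoylating enzymes 1 of 2, Ppt2 (p = 6.94e-06, n = 30 arrays), at 0.20 ± 0.24 at 1 h and -0.27 ± 0.22 at 6 h.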

How the data were processed

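Each of the 30 arrays was read by the study with QuantArray by the fixed circle method, and the scanner files deposited by the authors hold the spot intensity and local background of both channels on a linear scale. The deposited table of log2 ratios, made by the authors with print-tip loess, holds 12593 spots, 70 of them zinc finger spots, and served as an alternative. Here intensities were used without background subtraction (median local background at most 28.3 units, median signal 482 to 2175). Spots were kept where both channels were brighter than the dimmest 10% of all spots on every array. Empty and control spots counted in setting that limit, and the 1170 empty and 192 control spots were themselves left out. Log2 ratios of CRH-treated over untreated were normalised by loess (span 0.75) in each of 48 print-tip blocks with R 4.3.3. On the 11341 shared spots the resulting ratios correlated with those of the deposited table at r = 0.979 to 0.992 per array, across genes. Linear models over arrays used a p threshold of 0.01, and limma 3.58.1 on the 5 averages used an adjusted p of 0.05. All models were fitted on all spots and were tested on simulated data. Named are the spots that passed the test for time, those past the 1.5-fold rule, the 3 lowest interaction p, the 3 highest and lowest CRH effects, Zfp213, Zfp142, and spots of genes printed more than once; no spot passed the 1.5-fold rule. The extremes at each time point, the spots that differed between 6 h and 3 h, Zscan12 and Zfp354a were named after their values were seen. Members and gene lists were chosen with earlier results of these data known. Alternatives changed the background, filter, normalisation, threshold, block and replicates. The number of arrays limits the precision of the ratios, and a single pair of RNA samples per time point leaves the spread between cultures unmeasured.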

Additional observations from a re-analysis of the deposited data

Results flagged for a closer look

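On 3 of the 120 sets of 6 arrays looked at (24 spots at 5 time points), 1 array lay far from the other 5, where chance gives about 1 in 20. The first spot of Fezf2 read 0.78 on replicate 2 at 6 h, with the other 5 arrays between -0.38 and -0.09, and its average of -0.05 is -0.22 without it. The second spot of Zfp64 read -0.40 on replicate 4 at 1 h, with the others between 0.05 and 0.26. The second spot of Zmym3 read -0.77 on replicate 1 at 3 h, with the others between -0.25 and -0.05.

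The time points differed from each other at 9 spots without a dye interaction, by the linear model over 30 arrays. The p were 2.07e-07 for Zfp213, 1.77e-04 for Zfp67, 4.77e-04 for Zfp142, 0.00283 for Zfp143, 0.00317 for the second spot of Zmym3, 0.00424 for the third spot of Zfand5, 0.00581 for Rnf114, 0.00599 for Zfpm1 and 0.00611 for the first spot of Fezf2. Between 6 h and 3 h, over 12 arrays, they were 0.00367 for Zfp67, 0.00552 for the first spot of Zeb1, 0.00553 for Zfr, 0.00901 for Zfp213 and 0.00985 for Zfp207.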

How the results depend on the processing

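The count of 9 zinc finger spots that changed over time was 4 with time in hours as a number, 3 at an adjusted p under 0.05 and 4 with the day of quantification as a block (335 of 12249 spots in all, against 1013 without it). Those 4 were Zfp213, Zfp67, Zfr and Zfp354a. The 9 spots with a dye interaction were 5 with time as a number. The 5 spots that differed between 6 h and 3 h were 2 in the deposited log2 table. The 0 averages past 1.5-fold were 3 of 137 spots without the filter on dim spots, all from spots the filter removes. Over all 22819 spots there were 307 such averages. At a limit of 1.3-fold there were 2 zinc finger averages, beside 784 over all 14375 spots. Leaving out 1 replicate number at a time gave 3 to 8 spots for time, 4 to 9 for the interaction and 1 to 3 for 6 h against 3 h, lowest without replicates 1, 3 and 6 in that order. The other alternatives kept these counts within 1.5 times, and the CRH effect and trend stayed at 0 under each one run. Same-numbered arrays did not deviate together (median r = -0.0003 over 60 pairs, highest 0.05), so the number marks no pairing. With a replicate block in place of dye, 8 spots changed over time and 4 differed between 6 h and 3 h. Among single named spots, 80 of 226 values under an alternative lost their call. The 226 include the 5 spots of 6 h against 3 h with the day as a block. That fit repeats the main one, so no call could be lost there. Both fits of Zfp67 without its saturated arrays, chosen after seeing the data, kept theirs (p = 2.18e-04 for time, n = 25 arrays, and 0.00224 for 6 h against 3 h, n = 11 arrays). The CRH effect of the fourth spot of Zfand5 ranged from -0.0023 to 0.13 when a replicate was left out, beside 0.08 over all, and was below 0 without replicate 1. The causes were not tested.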
